A study of Mus with 4 samples.

Results

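Htr3a neurons are dorsal root ganglion (DRG) neurons that carry Htr3a together with the large-fibre gene Nefh, and 170 of the 3740 neurons found among 37451 droplet barcodes were of this kind. A barcode was taken as a neuron when under 20% of its unique molecular identifiers (UMIs, tags that count each captured RNA molecule once) came from mitochondrial genes, when it held at least 8000 UMIs, and when Snap25, Uchl1 and Tubb3 gave at least 20 UMIs and more than the glial genes Apoe and Fabp7. Members were then the neurons with at least 1 Htr3a and 5 Nefh UMIs per 10000 UMIs, under 3 of Pvalb, under 1 of Trpm8 and under 10 of Sprr1a. The members were therefore chosen on measured values, and the levels of these 10 genes are given as a description only. Pvalb and Trpm8 mark proprioceptors with related large neurons and cold-sensing neurons, and Sprr1a is a gene that injured neurons switch on.

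Htr3a encodes the core subunit of the 5-HT3 receptor, the serotonin receptor that is itself a cation channel, and Htr3b encodes a subunit that assembles only together with it. Nefh encodes the heavy neurofilament, an intermediate filament of thick axons, so DRG neurons rich in it are mostly those with myelinated fibres. Such neurons include touch receptors, proprioceptors and the fast-conducting A-fibre nociceptors, and the 5-HT3 receptor is known for letting serotonin released in tissue depolarize sensory endings.

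The data came from L4 and L5 DRGs of wildtype male adult C57BL/6J mice, in 2 libraries of naive mice (CON) and 2 of mice studied 3 d after chronic constriction injury (CCI), in which chromic gut ligatures are tied loosely around the left sciatic nerve. No transgene was used, and no drug treatment is named apart from the isoflurane under which surgery was done. The CON mice were naive, so the groups also differ in surgery and its anaesthesia. How many mice went into each library is not stated, so a p-value reflects only how far these libraries spread, which may be technical. Dissociation is described as collagenase digestion with freezing in the sample labels and as digestion with Liberase and papain in the study's methods. A CCI ganglion holds injured and spared neurons together, and neither the injury of a given cell nor the myelin on its axon was measured.

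CON replicate 1 held 50 members among 939 neurons, CON replicate 2 held 8 among 247, CCI replicate 1 held 67 among 1653 and CCI replicate 2 held 45 among 901. Values of the 4 libraries are given in this order throughout. CON replicate 2 thus stood apart, with 8 members of a median of 110332 UMIs each, of which 1 cell gave 24.4% of the library's member UMIs. In the other libraries, in the same order, the median member held 30358.5, 42761 and 59132 UMIs, and no cell gave more than 6.34%. Any 2 libraries shared 12 to 31 barcodes, at most 0.385% of the smaller library, and no barcode was a member in both libraries. The tests below rest on UMIs summed over the members of a library, as counts scaled to 1e6 (CPM) of the 1007891 to 3213345 UMIs left after 13 mitochondrial genes were removed.

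Htr3a neurons took 5.32% of the neurons of CON replicate 1 (95% exact binomial interval 3.98 to 6.96) and 3.24% of CON replicate 2 (1.41 to 6.28). They took 4.05% of CCI replicate 1 (3.15 to 5.12) and 4.99% of CCI replicate 2 (3.67 to 6.63). The shares of the 2 groups overlapped, with means of 4.28% ± 1.47 in CON and 4.52% ± 0.666 in CCI (SD, n = 2), and an exact two-sided permutation test of 2 against 2 libraries cannot go below p = 0.333. The intervals cover counting error only, and neurons lost in dissociation would change a share in the same way as neurons that changed their transcripts. The limit on Sprr1a removed 7 and 14 otherwise fitting neurons from the CCI libraries and none from CON, and without it the CCI mean was 5.51% ± 1.46.

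Near the limits of the rule, the members just inside held 1.005 Htr3a and 5.155 Nefh per 10000 UMIs, and the neurons just outside held 0.999 and 4.86. Their medians were 2.845 Htr3a and 13.51 Nefh per 10000 UMIs. The limit on Htr3a alone shut out 295 neurons, that on Nefh 101, that on Sprr1a 21, that on Pvalb 7 and that on Trpm8 1. The highest values inside were 2.496 for Pvalb, 0.6975 for Trpm8 and 9.768 for Sprr1a, and the nearest values outside were 3.319, 3.53 and 11.12.

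The label of these cells, myelinated Htr3a neurons of the class NF1, was checked against its given markers Htr3a, Sema5a, Trappc3l and Cgnl1. Htr3a was required by the rule, so only the other 3 bear on the label. At least 2 of these 3 had a UMI in 127 of the 170 members (74.7%, and 73.3% to 76.1% by library), against 14.9% of the other neurons and 3.75% of glial barcodes. With each cell thinned to 8000 UMIs the expected shares were 49.9% of members, 4.64% of the other neurons and 2.05% of glial barcodes. These shares describe the members and are no test, since the cells were picked by their transcripts. Sema5a encodes a transmembrane semaphorin that guides axons, Trappc3l a paralog of a vesicle-tethering subunit, and Cgnl1 the junction protein paracingulin. The other 43 members held at most 1 of these 3 markers, and most of them belonged to a set of cells with Ntrk2 that is described further on.

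The serotonin receptor genes came first because they define these cells. Htr3a stood at 298, 290, 394 and 512 CPM, against 11.5 to 18.7 CPM in the other neurons, which is what the rule asked for. Htr3a was found in 84%, 100%, 91.0% and 88.9% of members once each cell was thinned to 8000 UMIs, and in 0.762% to 6.91% of glial barcodes (more Apoe and Fabp7 than neuronal UMIs), which should lack it. For genes that glia lack, glial barcodes show the share that free RNA gives here, at median depths of 10050 to 13240 UMIs before thinning. Doublets were not called, and glial barcodes that hold a neuron would raise that share.

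Htr3b, which the rule did not use, stood at 30.3, 32.7, 45.1 and 48.0 CPM in the 4 libraries. The other neurons held 5.99, 4.45, 3.1 and 3.62 CPM, so members were 5.06 to 14.6 times higher within a library. Htr3b was found in 30%, 12.5%, 26.9% and 26.7% of thinned members and in at most 1.09% of glial barcodes. The Htr3a and Htr3b genes lie side by side on mouse chromosome 9, Htr3a from 48899213 to 48911152 and Htr3b from 48935008 to 48964990 (mm10, RefSeq annotation of that build).

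Several metabotropic serotonin receptors, which act through G proteins, were found too. Htr1b, the inhibitory receptor that triptans act on, stood at 57.9, 23.8, 53.8 and 45.9 CPM, 1.27 to 3.62 times the other neurons. Htr1d, its close relative, stood at 20.6, 32.7, 12.1 and 11.6 CPM, and Htr7, a stimulatory receptor, at 7.58, 13.9, 6.54 and 5.96 CPM. No UMI of Htr2b was found in any member. Of 14 serotonin receptor genes 7 passed the filter on low counts. None of these passed the test between CCI and CON at an adjusted p under 0.05 in edgeR, and DESeq2 called none. At an unadjusted p under 0.05 in edgeR 1 was lower, beside 2.64% of all genes tested.

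Against the other neurons of the same library, 20 genes stood out by the highest lowest-of-4 ratio among genes of at least 50 CPM in members of every library. These ratios are a description, since the cells were picked by their transcripts. The leading ones were Sema5a at 116, 155, 189 and 111 CPM (12.0 to 57.5 times the other neurons), Chp2, a calcium-binding cofactor of sodium/proton exchangers (8.69 to 66.3 times), and Trappc3l at 340, 372, 408 and 409 CPM (8.19 to 18.3 times). Cgnl1, below 50 CPM in 1 library, was 10.1 to 19.0 times higher.

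Several of the 20 genes belong to large, fast neurons. S100b, a calcium-binding protein of large sensory neurons and glia, stood at 1183, 1784, 1116 and 1334 CPM, 6.89 to 12.0 times the other neurons. Thy1, a surface glycoprotein of mature neurons, was 6.51 to 19.9 times higher and Scn4b, an auxiliary sodium channel subunit for rapid firing, 4.84 to 10.7 times. Others serve release and signalling: Cpne6 and Cplx2 bind at vesicle and synaptic membranes (6.78 to 12.3 and 5.13 to 10.6 times), Sv2b is a synaptic vesicle protein (5.59 to 12.0 times), and Prkcb is a calcium-activated kinase (7.33 to 12.5 times).

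Receptors for growth and guidance cues were also among them. Ngfr, the low-affinity neurotrophin receptor, stood at 779, 473, 837 and 688 CPM, 5.19 to 7.52 times the other neurons. Nrp2, a semaphorin and VEGF co-receptor, was 5.25 to 10.4 times higher than in other neurons and 30.9 to 49.0 times higher than in Pvalb neurons. S100a16 reached 6.37 to 107 times, but glial barcodes held 200 to 211 CPM of it, against 76.8 to 272 CPM in the members, so its part from glial RNA was not tested.

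The 8 genes with the lowest ratios were Tmem45b, Ctxn3, Synpr, Cd55, Tmem158, Cd24a, Tceal9 and Lxn. Cd55, a complement regulator that marks non-peptidergic neurons, stood at 49.8, 36.7, 42.0 and 42.1 CPM, 0.0826 to 0.168 times the other neurons. Synpr, a synaptic vesicle protein of the same cells, was at 0.0417 to 0.136 times, Ctxn3 at 0.0126 to 0.0877 times and Tmem45b at 0 to 0.0654 times. Tmem158, Cd24a, Tceal9 and Lxn were between 0.0941 and 0.257 times the other neurons. Mrgprd, the receptor that defines non-peptidergic NP1 neurons, gave 0.541, 0, 3.11 and 0.35 CPM in the members and 103, 53.3, 42.0 and 18.7 CPM in the other neurons.

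**Figure D1:**
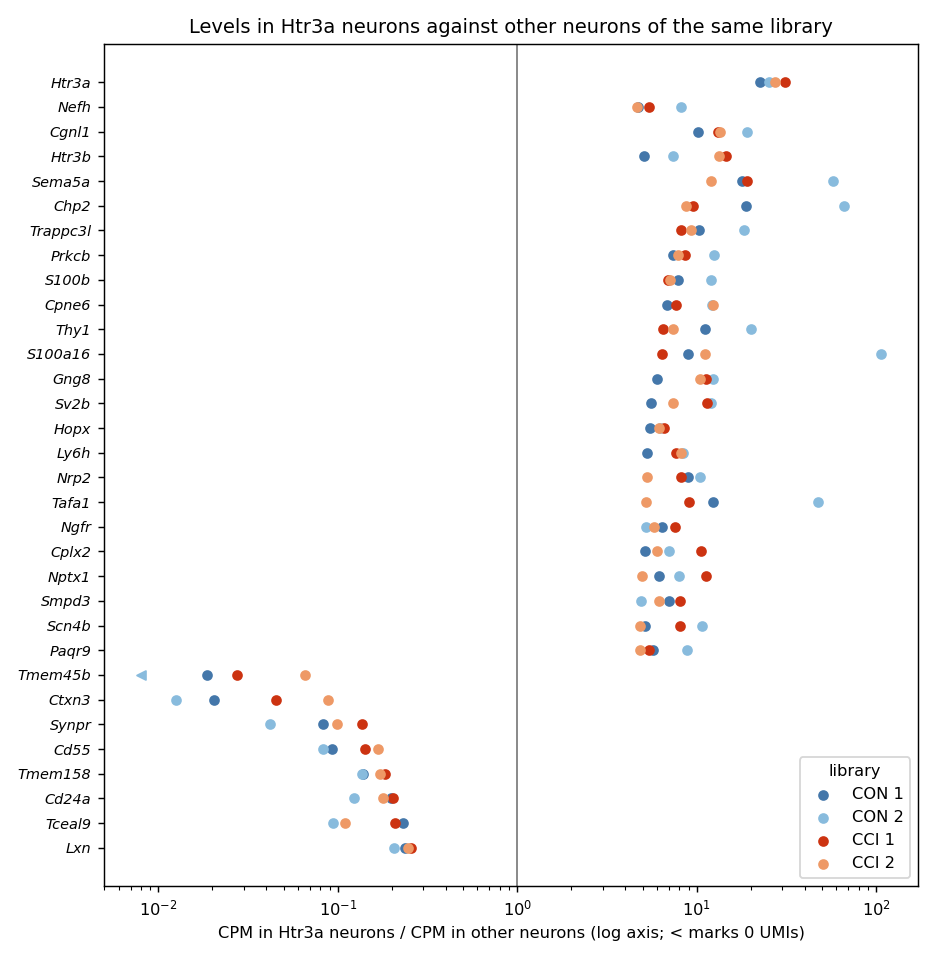
Ratio of CPM in Htr3a neurons to CPM in the other neurons of the same library, 1 row a gene and 1 point a library, on a log axis with a line at equal levels. Htr3a and Nefh were used to choose the cells; Sema5a lies between 12.0 and 57.5 and Cd55 between 0.0826 and 0.168 in the 4 libraries.

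Intermediate filaments of the axon were compared with both the other neurons and the Pvalb neurons. Nefh, a rule gene that both sets had to hold, stood at 1492, 2035, 1722 and 1545 CPM, 4.66 to 8.17 times the other neurons but 0.401 to 0.642 times the Pvalb neurons of the same library. Nefm, the medium neurofilament, was 2.06 to 3.81 times the other neurons and 0.348 to 0.628 times the Pvalb neurons. Prph, the intermediate filament of thin fibres, was 0.433 to 0.624 times the other neurons and 0.869 to 1.77 times the Pvalb neurons, so its order against the latter changed between libraries. The Pvalb neurons (12, 20, 70 and 48 cells) met the same limits on Nefh, Trpm8 and Sprr1a but held at least 3 Pvalb UMIs per 10000.

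Of 11 genes of the node of Ranvier, the gap in myelin where sodium channels gather, and of the adjoining paranode, 6 were over 2 times the other neurons in every library. Cntnap1 and Cntn1, which join the axon to the myelin loops beside the node, were 4.76 to 6.61 and 3.96 to 9.19 times the other neurons. Nfasc and Nrcam, adhesion proteins of the node, were 3.39 to 6.66 and 4.10 to 6.20 times. Scn8a, the main sodium channel of mature nodes, stood at 242, 208, 246 and 124 CPM, 4.40 to 7.71 times. Against Pvalb neurons the ratio of Scn8a was 0.622 to 1.07, so the libraries did not put these levels in 1 order.

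The ion channels of nociceptors split. Scn10a, the tetrodotoxin-resistant channel Nav1.8, stood at 424, 171, 508 and 385 CPM, 0.741 to 2.18 times the other neurons, whereas Scn11a, the channel Nav1.9 of C fibres, was at 0.232 to 0.388 times. Asic3, an acid-sensing channel, stood at 94.7, 119, 175 and 294 CPM, 4.57 to 10.5 times.

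Of 8 marker genes of A-fibre nociceptors, 4 were at least 2 times the other neurons in every library. Calca, which encodes the peptide CGRP, stood at 7115, 8872, 10306 and 15422 CPM, 1.33 to 2.02 times the other neurons and 7.86 to 165 times the Pvalb neurons. Calca was also found in 30.7% to 96.7% of thinned glial barcodes, so a share of cells with Calca reads little here. Bmpr1b, a BMP receptor, was 10.9 to 35.1 times the other neurons. Smr2, a small secreted protein that marks A-fibre nociceptors, was 9.45 to 44.3 times. Both were sparse, with 27, 14, 51 and 44 UMIs of Bmpr1b and 34, 15, 176 and 785 of Smr2 in the members. Only 1, 0, 2 and 0 members held at least 1 Bmpr1b UMI per 10000. The median member held 0 Smr2 in every library, and in CON replicate 2 a single cell held 13 of the 15 Smr2 UMIs.

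Marker lists of touch receptors differed in their order. The summed CPM of 5 markers of Aδ touch receptors (Ntrk2, Cadps2, Colq, Necab2 and Piezo2) was 781, 714, 584 and 315 in the members and 346, 325, 206 and 258 in the other neurons, but 614, 684, 590 and 522 in glial barcodes. Ntrk2 gave most of the glial sum, at 505, 643, 524 and 484 CPM. The 6 markers of rapidly adapting Aβ touch receptors went the other way, with 421, 492, 450 and 307 CPM in the members and 660, 620, 536 and 510 CPM in the other neurons. A list of 5 other Aβ touch receptor markers (Ntrk3, Nefh, Ntng1, S100a16 and Scn1a) was higher in the members. It summed to 1847, 2765, 2065 and 1872 CPM, against 456, 375, 428 and 452 CPM in the other neurons and 3351 to 4547 CPM in Pvalb neurons. Of these 5 genes 4 were at least 2 times the other neurons in every library. That list holds the rule gene Nefh, which gave most of its sum in the members. The summed CPM of 6 proprioceptor markers was 95.2, 47.6, 77.5 and 53.6, against 2333 to 3319 CPM in Pvalb neurons, a list that holds the rule gene Pvalb. Ret, the GDNF receptor of many touch and non-peptidergic neurons, was at 0.177 to 0.384 times the other neurons.

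Within the members, Ntrk2, the BDNF receptor, parted the cells. Glia also express it, and it was found in 76.7%, 91.3%, 86.4% and 83.7% of glial barcodes thinned to 8000 UMIs, against 28%, 50%, 31.3% and 22.2% of thinned members. The part of glial RNA in the Ntrk2 of members was not tested, while Cadps2, which followed the same split, stood at 3.31 to 8.91 CPM in glial barcodes. Ntrk2 was at 0 in 99 members and reached 27.68 UMIs per 10000 in the highest, and 42 members held at least 1 per 10000. They numbered 12, 3, 18 and 9 in the 4 libraries, or 24%, 37.5%, 26.9% and 20% of members. The level of 1 was chosen after the values had been seen, so what follows is a description with no test.

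Calca and several other genes were low where Ntrk2 was high. Calca stood at 1745, 36.3, 1457 and 99.4 CPM in the members with Ntrk2 and at 9706, 14350, 12890 and 17030 CPM in the 128 others. Every library had it lower in the members with Ntrk2. Asic3, Kit, Scn10a, Smr2 and Cplx2 were lower there in every library too, Scn10a at 33.3, 0, 157 and 3.68 CPM against 612, 276, 611 and 425 CPM.

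Other genes, chosen after their values were seen, went the other way. Cadps2, which primes vesicles for release, stood at 241, 176, 165 and 272 CPM with Ntrk2 and at 2.41, 0, 2.82 and 1.94 CPM without. Ntng1, a netrin-related adhesion protein, stood at 226, 358, 118 and 140 CPM with Ntrk2 and at most at 4.01 CPM without. Kcnq3, a subunit of the slow M-type potassium channel, stood at 284, 348, 182 and 158 CPM against 13.6, 4.82, 22.1 and 5.04 CPM. Shox2, a transcription factor of touch receptors, stood at 66.5, 98.5, 23.4 and 22.1 CPM against at most 1.61 CPM.

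The given markers other than Htr3a followed the split in their levels. Trappc3l stood at 58.2, 7.78, 211 and 22.1 CPM with Ntrk2 and at 476, 598, 466 and 450 CPM without, and Sema5a at 18.3, 7.78, 75.7 and 7.36 against 163, 246, 222 and 122 CPM. Htr3a stood at 293, 207, 486 and 125 CPM with Ntrk2 and at 301, 341, 367 and 552 CPM without, so neither set was the higher in every library. Nefh stood at 1424, 2650, 1805 and 2249 CPM against 1525, 1654, 1698 and 1471 CPM. Of the other rule genes, Trpm8 was at 0 with Ntrk2 in every library and at 2.41, 12.9, 1.61 and 1.16 CPM without, and Sprr1a stood at 99.1 and 103 CPM with Ntrk2 in CCI against 26.1 and 36.4 CPM without. At least 2 of the 3 markers the rule did not use had a UMI in 15 of the 42 members with Ntrk2 (35.7%) and in 112 of the 128 without (87.5%). The expected shares in cells thinned to 8000 UMIs were 15.4% and 61.2%. Most of the 42 cells lacked at least 2 of those 3 markers, and they are called here by Ntrk2 only.

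**Figure D2:**
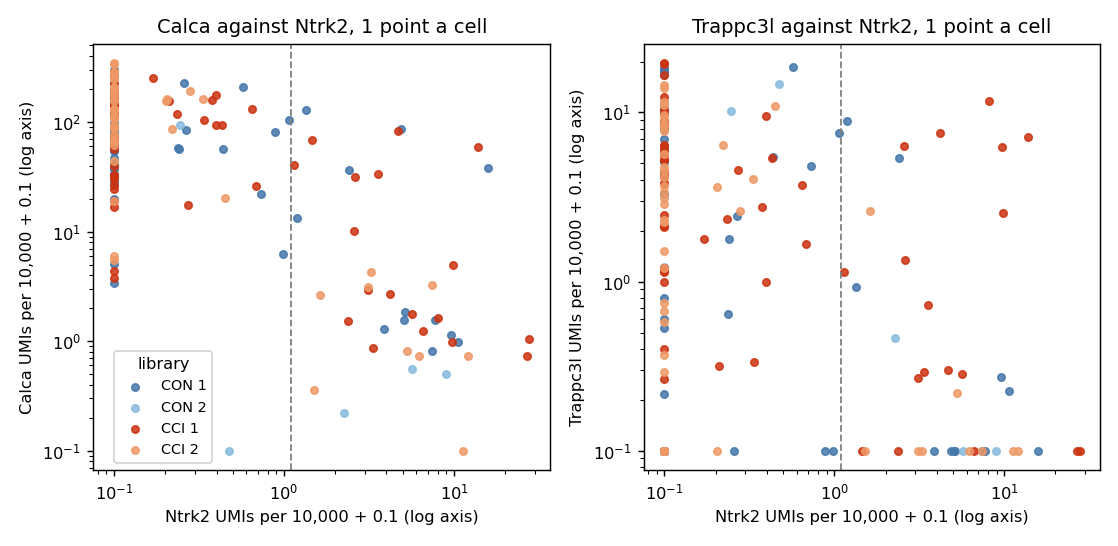
UMIs per 10000 of Calca (left) and Trappc3l (right) against Ntrk2 in the 170 Htr3a neurons, 1 point a cell coloured by library, with 0.1 added to each value on log axes and a dashed line at 1 Ntrk2 UMI per 10000. The 42 cells right of the line mostly lie below the others in both genes.

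How CCI changed these neurons was asked next, on the 4 sums. Of 10546 genes that passed edgeR's filter on low counts, 4 were higher in CCI (0.0379% of those tested) and 1 was lower (0.00948%) at a Benjamini-Hochberg adjusted p under 0.05 in edgeR's quasi-likelihood test. At an unadjusted p under 0.05 they were 298 and 278, and DESeq2 called 16 higher and 7 lower, which included the 5. The median log2 fold change over all tested genes was -0.01. The 4 higher genes were Sprr1a, Ucn, Flrt3 and Nts, and the lower one was Bc1. Sprr1a was used by the rule, which kept it under 10 per 10000, and its values of 0, 0, 42.6 and 42.8 CPM are a description.

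Ucn encodes urocortin, a peptide of the corticotropin-releasing factor family. It gave 0, 0, 21.2 and 30.8 CPM. It was thus not detected in CON and present in both CCI libraries, at least 24.5-fold higher against 3 UMIs over the CON group (edgeR adjusted p = 0.0181). Few cells carried it: 15 of 67 members in CCI replicate 1 and 6 of 45 in CCI replicate 2, where 1 cell held 82 of the 88 UMIs. In thinned cells it was found in 14.9% and 8.89% of CCI members and in 7.36% and 1.32% of CCI glial barcodes, at median depths of 42761 and 59132 against 10520 and 10050 UMIs. Ucn lies on chromosome 5 from 31137989 to 31138895.

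Flrt3 encodes a leucine-rich repeat adhesion protein of growing axons. It stood at 7.58, 8.93, 87.8 and 46.3 CPM, higher in both CCI libraries than in either CON library, with a log2 fold change of 3.07 (SE 0.41, edgeR adjusted p = 0.0202). It was found in 20.9% and 11.1% of thinned CCI members, below the 22.1% and 14.2% of CCI glial barcodes. The source of Flrt3 in glial barcodes was not tested, so the share of members with it cannot be read as background or as expression. Glial barcodes held 12.7, 14.2, 55.8 and 29.0 CPM of it, which moved with the members' values, and the part of free RNA in the change was not tested. Flrt3 lies on chromosome 2 from 140658198 to 140671476.

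Nts encodes neurotensin, a signalling peptide of gut and brain. It gave 1.08, 0.992, 93.7 and 22.8 CPM, or 3 UMIs in CON and 366 in CCI, a ratio per UMI sequenced of 57.4 (95% counting interval 19.5 to 280; log2 fold change 5.73, SE 0.79, edgeR adjusted p = 0.0221). The counting interval leaves out the spread between cells and libraries, so it is too narrow. The CCI libraries both exceeded the CON libraries. In CCI replicate 1, however, 1 cell held 184 of the 301 UMIs, and in CCI replicate 2 a single cell held 58 of the 65. Nts was found in 23.9% and 6.67% of thinned CCI members, again below the 25.1% and 10.8% of CCI glial barcodes. The source of Nts in those barcodes was not tested either. Glial barcodes held 4.27, 0.913, 103 and 32.7 CPM, and the part of free RNA was not tested. Nts lies on chromosome 10 from 102481756 to 102490418.

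Bc1 is a short noncoding RNA of neurons that represses translation in dendrites. It stood at 851, 355, 30.5 and 50.1 CPM, lower in both CCI libraries than in either CON library, with a log2 fold change of -3.81 (SE 0.49, edgeR adjusted p = 0.0181). Pvalb neurons held 2475, 446, 63.1 and 136 CPM, the other neurons 697, 209, 31.9 and 58.5 CPM and the glial barcodes 372, 53.9, 12.6 and 16.2 CPM. The drop in level was thus seen in each of these cell groups of the same libraries, and whether it belongs to the libraries or to CCI cannot be told apart. Bc1 lies on chromosome 7 from 144914470 to 144914623.

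**Figure D3:**
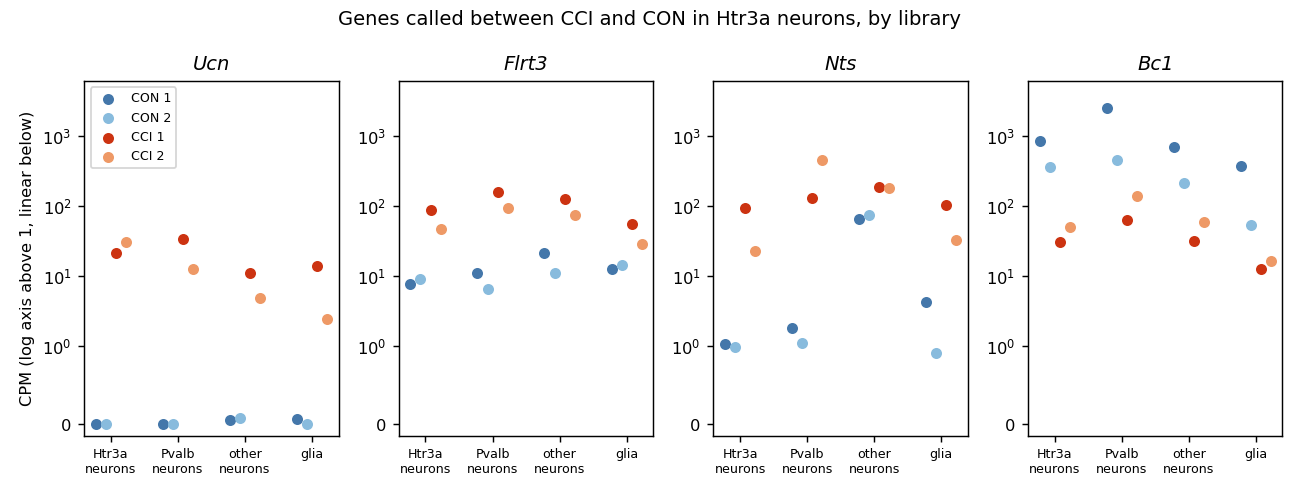
CPM of Ucn, Flrt3, Nts and Bc1 in the sums of Htr3a neurons, Pvalb neurons, other neurons and glial barcodes, 1 point a library, on an axis that is logarithmic above 1 and linear below. In Htr3a neurons both CCI points lie above both CON points for Ucn, Flrt3 and Nts and below them for Bc1.

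These calls were kept when any 1 library was left out, CON replicate 2 included, where 41 genes were higher and 17 lower. They were lost when only the 128 members without Ntrk2 were summed (0 higher and 0 lower by edgeR, with 151 and 109 at an unadjusted p under 0.05) and when at least 3 Htr3a UMIs per 10000 were asked for (0 higher and 0 lower, with 90 and 138). With Sprr1a under 3 per 10000, 1 gene was higher and Bc1 stayed lower. No alternative changed the sign of Ucn, Flrt3, Nts or Bc1. Over 18 alternatives the log2 fold change ran from 1.545 to 3.38 for Flrt3 and from -4.34 to -3.10 for Bc1. For Nts it ran from 4.51 to 7.125 over the 15 that tested it.

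The 9 genes that the study calls regeneration-associated were chosen on these samples, so they are no independent evidence of a direction. Without the rule gene Sprr1a, 7 of the other 8 were tested and 1, Flrt3, rose, beside the 0.0379% of all genes. Their median log2 fold change was 2.08, 4 were higher at an unadjusted p under 0.05, beside 2.83% of all genes, and DESeq2 called 2. Gpr151, a receptor induced by axotomy, did not pass the filter on low counts and gave 0, 0, 9.65 and 4.21 CPM, at least 6.75-fold higher in CCI against 3 UMIs over the CON group.

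The other 6 did not pass the test. Of 18 alternatives, however, Gal passed in 9, Gadd45a in 8 and Atf3 in 6, with no change of sign. Atf3, a transcription factor induced by axon injury, stood at 55.2, 9.92, 243 and 170 CPM (log2 fold change 2.65, SE 0.52, edgeR adjusted p = 0.106). In the CCI libraries 1 cell held 31.6% and 45.4% of its UMIs. Glial barcodes held 140, 278, 321 and 970 CPM of Atf3, above the members in every library, so they cannot gauge free RNA for this gene. Of those thinned in CCI, 56.7% and 65.6% had it, against 56.7% and 33.3% of CCI members. The part of glial or free RNA in the members' share was not tested. Gal, the injury peptide galanin, stood at 123, 18.9, 731 and 888 CPM (3.57, SE 0.63, adjusted p = 0.0823), and 1 cell held 59.7% and 63.9% of its UMIs in the CCI libraries. Gadd45a, a stress-induced growth arrest gene, stood at 17.3, 22.8, 97.7 and 65.2 CPM (2.08, SE 0.35, adjusted p = 0.0706), and 1 cell held 19.1% and 40.9% of its UMIs in the CCI libraries. For these 3 genes the lower CCI value exceeded the higher CON value.

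The growth cone gene Gap43 was already high in CON. It stood at 1112, 721, 1487 and 1198 CPM, with a log2 fold change of 0.61 (SE 0.38, edgeR adjusted p = 0.973). Sox11, a transcription factor of axon growth, stood at 52.5, 19.8, 72.8 and 31.2 CPM (0.51, SE 0.44, adjusted p = 0.989), and its groups overlapped. Serpinb1a, a protease inhibitor, stood at 63.3, 606, 615 and 634 CPM (0.94, SE 0.71, adjusted p = 0.989), where 1 cell of CON replicate 2 held 380 of that library's 611 UMIs. Without CON replicate 2, the adjusted p of Serpinb1a went as low as 0.0002239 at a log2 fold change of 3.43.

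A wider list of regeneration-associated genes held 43 genes in the data without Sprr1a, of which 33 were tested and 1 rose. In that list 14 were higher at an unadjusted p under 0.05, 29 had a positive log2 fold change, the median was 0.81 and DESeq2 called 3. Over all 10546 genes tested, 2.83% were higher and 2.64% lower at an unadjusted p under 0.05, 49.6% had a positive log2 fold change and the median was -0.01. Of 25 tested immediate early and stress genes, none passed edgeR or DESeq2. At an unadjusted p under 0.05 in edgeR 13 were higher, beside the 2.83% of all genes, and the median was 0.94. Glial barcodes held 5994, 10490, 7128 and 22860 CPM of that list, against 1577, 1476, 1927 and 2357 CPM in the members. The part of glial or free RNA in the members' values was not tested. Jun, a partner of ATF3, stood at 149, 110, 265 and 191 CPM (0.86, adjusted p = 0.754). Of 4 tested injury-induced neuropeptides Nts passed, and Npy, neuropeptide Y, gave 0, 0, 11.2 and 20.3 CPM (edgeR adjusted p = 0.0676), at least 14.7-fold higher in CCI. In CCI replicate 2, 1 cell held 37 of the 58 Npy UMIs.

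The limit on Sprr1a set apart 21 CCI neurons, described here with no test. The 7 and 14 neurons it removed held 2010 and 2020 CPM of Sprr1a, against 42.6 and 42.8 CPM in the members of the same libraries, as the limit fixes. They also held 2856 and 6950 CPM of Gal against 731 and 888, 571 and 657 CPM of Atf3 against 243 and 170, and 179 and 162 CPM of Ucn against 21.2 and 30.8. Sema5a (35.7 and 25.3 CPM), Cplx2 (28.6 and 10.1 CPM) and Htr3a itself (200 and 248 CPM) lay below the members in both libraries. With these cells included, edgeR called 29 genes higher and 8 lower, the 5 genes above among them. Neurons with Htr3a below the limit of the rule were not counted in either group.

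Ion channels did not pass the test in these neurons. Of 68 voltage-gated, two-pore and HCN channel genes 61 were tested, and none passed edgeR or DESeq2. At an unadjusted p under 0.05 in edgeR, 1 was higher and 2 were lower, beside 2.83% and 2.64% of all genes. The median log2 fold change was -0.14. Scn8a stood at 242, 208, 246 and 124 CPM (-0.26, edgeR adjusted p = 0.993). Scn9a, the channel Nav1.7, stood at 485, 291, 571 and 310 CPM (0.22, adjusted p = 0.993). Both groups overlapped, with replicate 1 above replicate 2 in each.

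The other channels had values of the same kind. Kcna2, a channel beside the node, stood at 286, 250, 200 and 163 CPM (-0.51, SE 0.31, edgeR adjusted p = 0.968), the only 1 of the 7 channel genes of the study's list given here whose CCI values both lay below both CON values. Kcnb2, a delayed-rectifier potassium channel, stood at 408, 210, 320 and 204 CPM (-0.19, SE 0.37, edgeR adjusted p = 0.993). Cacna2d1, the calcium channel subunit that gabapentin binds, stood at 383, 187, 536 and 204 CPM (0.39, SE 0.44, adjusted p = 0.993). For each of these 7 genes the sign changed under at least 1 alternative, so no direction is given.

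**Figure D4:**
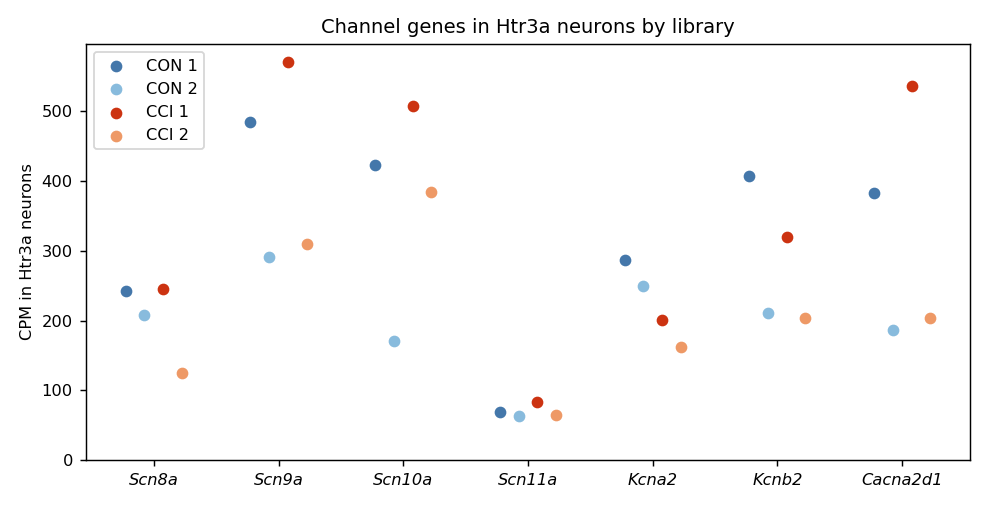
CPM of 7 channel genes in the sums of Htr3a neurons, 1 point a library. The CON and CCI points overlap in 6 of the 7 genes; in Kcna2 the CCI points, 200 and 163, lie below the CON points, 286 and 250.

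None of the sensory neuron marker lists held a gene that passed edgeR, and DESeq2 called 1 gene lower in the list of other Aβ touch receptors. Of 8 tested A-fibre nociceptor markers 6 had a positive log2 fold change (median 0.51), of 5 peptidergic C-fibre markers 2 (median -0.41), and of 4 Aδ touch receptor markers none (median -0.78). At an unadjusted p under 0.05 in edgeR, 2 of the first were higher, none of the second differed and 2 of the last were lower. Over all genes tested, 2.83% were higher and 2.64% lower at that level, and 49.6% had a positive log2 fold change. Of single genes, Smr2 stood at 18.4, 14.9, 54.8 and 275 CPM (log2 fold change 3.43, SE 0.68, edgeR adjusted p = 0.109), Calcb, the second CGRP gene, at 313, 183, 579 and 1028 CPM (1.80, SE 0.44, adjusted p = 0.268), and Asic3 had a log2 fold change of 1.22 (SE 0.38, adjusted p = 0.566). Ntng1 and Shox2 lay lower in both CCI libraries, also without passing: Ntng1 stood at 76.3, 137, 27.7 and 13.7 CPM (-2.33, SE 0.40, adjusted p = 0.0706) and Shox2 at 22.7, 37.7, 6.54 and 3.15 CPM (-2.56, SE 0.47, adjusted p = 0.0947). In each of these genes the groups did not overlap. The mix of members with and without Ntrk2 differed between libraries, 20% to 37.5%, and its part in these values was not tested.

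Of 21 tested cholesterol synthesis genes none passed edgeR or DESeq2, 5 were higher at an unadjusted p under 0.05 and 19 had a positive log2 fold change, beside 2.83% and 49.6% of all genes, with a median of 0.47. Of 24 tested sensory neuron transcription factors none passed edgeR, 1 was higher and 5 were lower at an unadjusted p under 0.05, beside 2.83% and 2.64% of all genes, and DESeq2 called 1 lower.

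Markers of other cells were also present in these sums. The summed CPM of 5 satellite glia markers was 734, 503, 497 and 215 in the members, lower in both CCI libraries, that of 5 Schwann cell markers 547, 572, 768 and 643, and that of 5 immune markers 5.41, 4.96, 6.54 and 14.4. That of 4 fibroblast markers was 44.9, 21.8, 79.4 and 324, higher in both CCI libraries, and was led by Dcn at 33.6, 12.9, 72.5 and 253 CPM. The part of glial and fibroblast RNA in the CCI results was not tested. Mitochondrial genes gave a median of 1.54%, 1.05%, 1.96% and 2.32% of a member's UMIs, higher in both CCI libraries.

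Whether CCI acted alike on Htr3a neurons and on Pvalb neurons was tested through an interaction term, in a fit that also held a term for each library. Of 10340 genes 4 had a larger log2 fold change in Htr3a neurons (0.0387% of those tested) and 58 a smaller one (0.561%) in edgeR at an adjusted p under 0.05, with 241 and 561 at an unadjusted p under 0.05. Without the library terms none passed in edgeR, with 117 and 351 at an unadjusted p under 0.05. The same Pvalb neurons had 162 genes higher and 8 lower in CCI among 8884 tested.

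Of the 58 genes with a smaller effect, 9 were on the list of regeneration-associated genes. Of 35 tested, without Sprr1a, 9 had a smaller log2 fold change in Htr3a neurons and none a larger one, beside 0.561% and 0.0387% of all genes. Their median difference was -1.06, against -0.03 over all genes. Gap43 rose in Pvalb neurons from 42.1 and 17.6 CPM in CON to 707 and 376 CPM in CCI (log2 fold change 4.23, SE 0.44, edgeR adjusted p = 0.000235), and differed from Htr3a neurons by -3.57 (SE 0.39, adjusted p = 0.000112). All 4 Htr3a values, 721 to 1487 CPM, lay above those Pvalb values. Sox11 differed by -2.08 (SE 0.40, adjusted p = 0.0135) and Serpinb1a by -2.61 (SE 0.38, adjusted p = 0.00125).

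Of 17 cytoskeleton genes, which include tubulins and stathmins, 3 had a smaller effect and none a larger one, beside 0.561% and 0.0387% of all genes. Their median difference was -0.03. Tubb2b, a tubulin of growing axons, stood at 501, 216, 723 and 493 CPM in Htr3a neurons and at 45.7, 3.30, 539 and 286 CPM in Pvalb neurons, a difference in log2 fold change of -3.48 (SE 0.46, edgeR adjusted p = 0.00063). Stmn4, a stathmin that binds tubulin, stood at 53, 59.5, 73.8 and 78.9 CPM and at 9.15, 12.1, 132 and 134 CPM in Pvalb neurons (-3.11, SE 0.41, adjusted p = 0.00063). Pvalb neurons thus went from below Htr3a neurons in CON to above them in CCI for Stmn4 but not for Tubb2b.

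Secreted and stress-response genes were among the 58 too. Vgf, a precursor of neuropeptides, stood at 121, 216, 596 and 218 CPM in Htr3a neurons and at 7.32, 5.49, 253 and 187 CPM in Pvalb neurons (-3.996, SE 0.51, edgeR adjusted p = 0.000592). Cdkn1a, the p53 target p21, stood at 37.3, 22.8, 81.2 and 63.4 CPM against 3.66, 0, 118 and 52.9 CPM (-4.37, SE 0.77, adjusted p = 0.00683). Hspb1, a small heat shock protein, stood at 1029, 1890, 1464 and 2220 CPM against 338, 548, 1459 and 2239 CPM (-1.62, SE 0.32, adjusted p = 0.0156). In each of these the CON levels were higher in Htr3a neurons of both libraries.

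The 2 channel genes of the study's list that passed were Scn11a and Cacna2d1. Scn11a stood at 68.7, 63.5, 82.8 and 64.8 CPM in Htr3a neurons and at 7.32, 1.1, 48.2 and 30.6 CPM in Pvalb neurons (-3.20, SE 0.60, edgeR adjusted p = 0.0107). Cacna2d1 stood at 38.4, 26.4, 241 and 196 CPM in Pvalb neurons (-2.38, SE 0.39, adjusted p = 0.00398). Among the 4 larger effects, Calml4, a calmodulin-like gene, stood at 74.7, 58.5, 140 and 267 CPM in Htr3a neurons and at 42.1, 26.4, 22.1 and 29.2 CPM in Pvalb neurons (2.04, SE 0.40, adjusted p = 0.0144). Rasgrp2, a guanine exchange factor for Rap, was at 2.16 to 12.3 CPM in Htr3a neurons and at 284, 243, 82.7 and 132 CPM in Pvalb neurons (2.80, SE 0.58, adjusted p = 0.0203).

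Other measures of the Pvalb neurons moved with CCI as well. Their median UMI count was 46777, 27722.5, 12444.5 and 22043, lower in both CCI libraries, while the medians of Htr3a neurons overlapped between groups. Calca stood at 267, 53.8, 1312 and 370 CPM in their sums, higher in both CCI libraries without passing the test (edgeR adjusted p = 0.0757). Cd24a, abundant in small neurons, rose from 51.2 and 47.2 to 391 and 224 CPM (adjusted p = 0.00092). Their Schwann cell markers summed to 161, 156, 2335 and 366 CPM and their neutrophil markers to 9.15, 47.2, 7.81 and 360 CPM. The part of these in the differences was not tested.

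**Figure D5:**
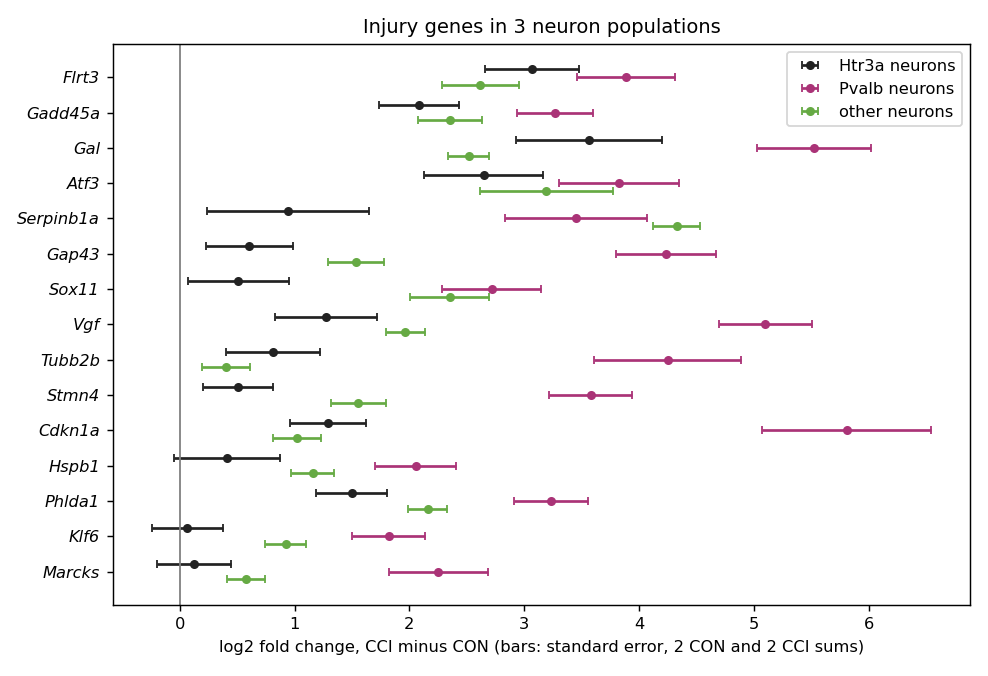
Log2 fold change, CCI minus CON, of 15 injury genes in the sums of Htr3a, Pvalb and other neurons, with bars for the standard error of the fit to 2 CON and 2 CCI sums. Gap43 lies at 0.61 in Htr3a neurons and at 4.23 in Pvalb neurons; the other neurons include the Pvalb neurons.

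Against all other neurons with Sprr1a under 10 per 10000, Pvalb neurons included, 14362 genes were tested in the same way. In Htr3a neurons 9 had a larger log2 fold change (0.0627%) and 26 a smaller one (0.181%), with 461 and 534 at an unadjusted p under 0.05. Without the library terms none passed in edgeR, with 211 and 331 at an unadjusted p under 0.05. The comparison shares the Htr3a sums with the one before, so the 2 are not separate evidence.

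The largest of the 9 larger effects was that of Nts, followed by Ly86, Gm765, Mrgpra2b, Kcnmb1 and Gna14. Nts stood at 65.4, 73.7, 185 and 180 CPM in the other neurons, where it was present in CON, and differed by 4.23 (SE 0.83, edgeR adjusted p = 0.0476). In Htr3a neurons, 1 cell held 61.1% and 89.2% of its UMIs in the CCI libraries. Calcb stood at 554, 589, 440 and 584 CPM there and at 313, 183, 579 and 1028 CPM in Htr3a neurons (1.92, SE 0.30, adjusted p = 0.0118). Ly86, a partner of a Toll-like receptor relative, stood at 852, 584, 473 and 572 CPM there and at 50.3, 6.95, 123 and 260 CPM in Htr3a neurons (3.26, SE 0.45, adjusted p = 0.00592). Kcnmb1, an auxiliary subunit of BK potassium channels, stood at 68.2, 19.8, 71.6 and 214 CPM in Htr3a neurons and at 107, 117, 49.0 and 80.2 CPM in the others (2.43, SE 0.44, adjusted p = 0.0308).

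Among the 26 smaller effects were Sox11 and Tubb6, and Kcnq3, Shox2 and Ntng1, which were higher in the members with Ntrk2. Sox11 stood at 47.3, 25.2, 237 and 134 CPM in the other neurons and differed by -1.79 (SE 0.28, edgeR adjusted p = 0.0128). Tubb6, a tubulin, stood at 4.33, 12.9, 29.3 and 21.7 CPM in Htr3a neurons and at 0.961, 0.86, 26.6 and 27.4 CPM in the others (-3.04, SE 0.53, adjusted p = 0.0278). Kcnq3 stood at 102, 136, 58.2 and 19.6 CPM in Htr3a neurons and at 7.56, 6.8, 11 and 10.3 CPM in the others (-2.18, SE 0.35, adjusted p = 0.0128). Shox2 differed by -2.89 (SE 0.53, adjusted p = 0.037) and Ntng1 by -2.18 (SE 0.40, adjusted p = 0.037). Within the members with Ntrk2, Kcnq3 stood at 284 and 348 CPM in CON and at 182 and 158 CPM in CCI, and the share of such members lay at 24% and 37.5% in CON and at 26.9% and 20% in CCI. How far the mix of members set these differences was not tested.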

How the data were processed

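Gene counts per droplet barcode came from 4 single-cell 3′ libraries (10x Genomics) of L4 and L5 DRGs. The deposited matrices hold whole UMI counts of 31253 genes, made by the authors with Cell Ranger on mm10, and the submitters' processing notes also name CASAVA 1.8 and Seurat. No normalization had been applied.

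Members were selected in Python 3.11.15 (numpy 2.4.6, pandas 2.3.3), and UMIs were summed per library and population. Sums went into edgeR 4.0.16 under R 4.3.3, by its quasi-likelihood test (filterByExpr, TMM, Benjamini-Hochberg over all genes tested, adjusted p under 0.05). Differences between populations were interactions with the library as a block. Binomial intervals came from scipy 1.17.1. A count of 0 allows up to 3 UMIs. Expected shares after thinning to 8000 UMIs came from hypergeometric probabilities. The tests were first tried on simulated data. Doublets were not called, and cell types follow the selection rule, not a clustering. For 48 symbols shared by several identifiers, rows stayed apart.

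The members and gene lists were chosen with earlier results of these data known. Named genes were those of the rule, the given markers, the 20 highest and 8 lowest profile ratios, the largest calls of each test, list members and the study's own lists. Genes picked for the split by Ntrk2 were chosen after their values were seen. Alternatives were no filter on low counts, DESeq2 1.42.0, scaling by upper quartiles, the replicate number as a block, each library left out, thinned sums and other limits of the rule. The members without Ntrk2 and thinning each member to 8000 UMIs were added after the data were seen.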

Additional observations from a re-analysis of the deposited data

Results flagged for a closer look

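The test of the difference between the CCI effect in Htr3a neurons and that in Pvalb neurons called 4 genes with a larger and 58 with a smaller effect. Values are differences of log2 fold changes, Htr3a neurons minus Pvalb neurons, in edgeR at an adjusted p under 0.05. The larger ones were Rasgrp2 at 2.80, Calml4 at 2.04, Gm765 at 1.89 and Gfra4 at 1.75. Of the smaller ones, the fitted values were -9.03 for Prkcq, -7.88 for Cd82 and -7.67 for Ggt5, which had no UMI in the Pvalb neurons of CON, so that these values depend on the fit and give no size. Next came Tmem159 at -5.13, Cdkn3 at -4.74 and the fibroblast collagen Col1a2 at -4.58, with 0 or under 3 CPM in Pvalb neurons of CON. Among growth and injury genes the difference was -3.57 for Gap43, -2.08 for Sox11, -2.61 for Serpinb1a, -3.48 for Tubb2b, -3.11 for Stmn4, -3.93 for Tubb6, -2.06 for Marcks, -3.996 for Vgf and -2.97 for Cd44. Among stress-response genes it was -4.37 for Cdkn1a, -4.03 for Cebpd, -1.72 for Klf6, -1.62 for Hspb1 and -1.76 for Phlda1. Among channels, calcium-binding proteins and receptors it was -3.20 for Scn11a, -2.38 for Cacna2d1, -2.09 for Gfra1, -2.13 for S100a6, -3.03 for S100a11 and -4.15 for Calb1, and for Shox2 it was -2.40.

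The same test against all other neurons called 9 genes with a larger and 26 with a smaller effect. The larger ones named were Nts at 4.23, Ly86 at 3.26, Gm765 at 2.60, Mrgpra2b at 2.59, Kcnmb1 at 2.43, Gna14 at 2.22 and Calcb at 1.92. The smaller ones named were Gm4208 at -4.44, Nxph3 at -3.99, Tent5a at -3.26, Tubb6 at -3.04, Sema6a at -2.90, Shox2 at -2.89, Anxa4 at -2.29, Ntng1 at -2.18, Kcnq3 at -2.18, Sox11 at -1.79 and Slc17a7 at -1.35. None of these calls was made without the library block, and their causes were not tested.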

How the results depend on the processing

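The 4 genes higher and 1 lower in CCI in Htr3a neurons became 16 and 7 with DESeq2, 80 and 41 without a filter on low counts, 29 and 8 without a limit on Sprr1a, and 0 and 0 with at least 3 Htr3a per 10000. The count of higher genes was 1 with Sprr1a under 3 per 10000, and that of lower genes was 6 with Apoe and Fabp7 under 5 per 10000 and 4 with mitochondrial UMIs under 10%. Alternatives chosen after seeing the data gave 0 and 0 in members with Ntrk2 under 1 per 10000, and 9 higher with each member thinned to 8000 UMIs, 2 of the 4 among them. With 1 library left out, higher genes ranged from 30 to 92 and lower genes from 5 to 55. With the replicate number as a block they were 55 and 38. The labels give no shared litter or day for a number. Over 10546 genes the deviations of same-numbered libraries correlated at r = 0.234. With 2 pairs this cannot show whether same-numbered libraries shared a day or litter, so the pairing is unknown. Against Pvalb neurons, the 4 larger and 58 smaller effects became 22 and 127 without a filter, 0 and 0 without the library block, and 11 to 33 and 81 to 145 with 1 library left out. Against other neurons, the 9 and 26 became 63 and 131 without a filter, 0 and 0 without the block, and 18 to 120 and 56 to 156 with 1 library left out. With at least 3 Htr3a per 10000 the mean share of neurons was 2.18% in CON and 2.35% in CCI, and without a limit on Sprr1a it was 5.51% in CCI. Of the genes named, those that changed sign had not passed the test: at Htr3a of at least 3, Sox11 (-0.75), Serpinb1a (-0.43), Scn11a (-0.51), Kcna2 (0.053) and Cacna2d1 (-0.17). They were Scn9a (-0.065) and Scn10a (-0.26) with thinned members, and Scn8a (0.0054), Scn11a (-0.24) and Kcna2 (0.045) in members with Ntrk2 under 1. With 1 library left out, values ran from -0.069 to 1.36 for Sox11, -0.68 to 0.078 for Scn8a, -0.14 to 0.58 for Scn9a, -0.54 to 0.31 for Kcnb2 and -0.29 to 0.95 for Cacna2d1. The causes of these changes were not tested. The number of cells limited CON replicate 2 most, with 8 members and the smallest sum of UMIs (1007891). Genes below about 3 UMIs in a group could not be compared.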
